A study of Mus musculus with 45 samples.

Results

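The interferon-stimulated genes described here were a named list of 9: Irf7, Ifit1, Ifit2, Ifit3, Oasl2, Rsad2, Ifi44, Isg15 and Usp18. They were found by gene symbol among the 55401 genes of the count tables of a translating ribosome affinity purification (TRAP) RNASeq study of mouse kidney, and all 9 were counted in all 45 mice and were present in both TPM tables, whose values are scaled by transcript length and depth. All 9 also passed the filter on low counts, which left 15991 protein-coding genes in males and 15968 in females.

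Interferons are secreted antiviral cytokines. Type I and type III interferons bind receptors that signal through the kinases Jak1 and Tyk2 to a complex named ISGF3, which holds Stat2 and Irf9 and binds the interferon-stimulated response element (ISRE) in promoters. Interferon-gamma acts through gamma-activated sequences (GAS) and raises an overlapping set of genes that includes the Gbp and Irg GTPases. In epithelial cells the same genes can also be raised by sensors of RNA and DNA such as Rig-I, Mda5 and Sting, which act through Irf3.

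Kidney tubule epithelium was sampled at 7 weeks of age (day 49), before cysts formed, in 3 genotypes of each sex. Noncystic mice were labelled wild type and carried Pkd1 fl/+, Pkd1KO mice carried Pkd1 fl/fl, and Pkd1KO+ciliaKO mice carried Pkd1 fl/fl and Kif3a fl/fl. All groups, the noncystic controls included, carried the RosaEGFP-Rpl10a, Pax8rtTA and TetOCre alleles and received doxycycline from day 28 to day 42, so that Cre and the tagged ribosomal protein were switched on from Pax8, a gene of the tubule epithelium, and only ribosome-bound RNA of cells with the tag was to be pulled down. Pkd1 encodes polycystin-1, and Kif3a is a motor subunit without which cilia are not built. The groups held 8 noncystic, 7 Pkd1KO and 9 Pkd1KO+ciliaKO males and 7 noncystic, 8 Pkd1KO and 6 Pkd1KO+ciliaKO females. Each mouse was taken as 1 replicate, so that p-values measured the spread between mice.

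The libraries held between 80874556 and 132958186 counts, with a median of 103070359, and levels are given as normalized CPM, the counts scaled to a common library size. Kif3a ranged from 4.90 to 7.45 CPM in Pkd1KO+ciliaKO males and from 13.8 to 29.2 CPM in the other males. In females, the library labelled noncystic replicate 5 had 6.69 CPM of Kif3a and the library labelled Pkd1KO+ciliaKO replicate 6 had 20.7 CPM, both against their labels, while the other Pkd1KO+ciliaKO females had 6.56 to 8.47 CPM. The floxed Pkd1 exons are a small part of that gene, and its whole-gene count was no firm check, at a median of 49.3 CPM in noncystic males and 36.6 CPM in Pkd1KO males. In males, 4 libraries chosen from earlier results of these data, Pkd1KO 4, Pkd1KO+ciliaKO 8 and 6 and noncystic 3, had the highest scores on the first principal component (30.6% of the variance), at 61.3, 58.1, 42.5 and 25.6. The next mouse was at 19.8, so that noncystic 3 was not set off by a gap, and the other 7 noncystic males were between -39.5 and -7.66. Tubule markers were present in all mice, the proximal tubule list summing to 8094 to 42504 CPM and Umod of the thick ascending limb reaching 1048 to 2957 CPM. The macrophage list was lower than both but not at 0, summing to 52.8 to 480 CPM, with its highest value in Pkd1KO male 4. Lists of cells outside the tubule were not all below the tubule lists. Group medians of the fibroblast and pericyte list ran from 357 to 567 CPM. Those of the intercalated cells of the tubule ran from 178 to 313.5 CPM and were lower in every group. Calls that changed without the libraries named above are named beside the results.

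The promoters of these genes are shown because the ISRE is the sequence through which type I interferon acts on them. RefSeq entries on GRCm38.p6, each of 250 bases before and 50 bases after a start, were found for 8 of the 9 genes, all but Usp18. The ISRE was searched as GAAA, any 2 bases and GAAA again, on both strands, and the GAS as TTCNNNGAA, which reads alike on both strands. The ISRE letters were held by 4 of the 8 genes, namely Isg15, Ifit1, Ifit3 and Rsad2, and by 1131 of 32851 promoters in the table (3.443%). The 200 bases upstream of the start of these 4 genes and, for contrast, of Oasl2, which had no match, follow on the gene's own strand, 5′ to 3′. Capitals mark the ISRE matches, read on either strand.
Isg15, chr4:156200819-156201018, minus strand: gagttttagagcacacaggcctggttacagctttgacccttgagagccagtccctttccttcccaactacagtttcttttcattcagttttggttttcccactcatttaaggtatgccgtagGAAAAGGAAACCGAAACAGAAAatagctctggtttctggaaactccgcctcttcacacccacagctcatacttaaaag
Ifit1, chr19:34640689-34640888, plus strand: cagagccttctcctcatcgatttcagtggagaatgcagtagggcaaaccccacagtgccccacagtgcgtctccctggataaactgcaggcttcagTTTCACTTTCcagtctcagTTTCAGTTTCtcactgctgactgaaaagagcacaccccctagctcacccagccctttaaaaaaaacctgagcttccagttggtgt
Ifit3, chr19:34583329-34583528, plus strand: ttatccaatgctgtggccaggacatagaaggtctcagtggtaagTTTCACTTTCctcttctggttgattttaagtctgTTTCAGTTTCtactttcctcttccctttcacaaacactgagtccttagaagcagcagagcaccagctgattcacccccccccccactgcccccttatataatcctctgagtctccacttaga
Rsad2, chr12:26456453-26456652, minus strand: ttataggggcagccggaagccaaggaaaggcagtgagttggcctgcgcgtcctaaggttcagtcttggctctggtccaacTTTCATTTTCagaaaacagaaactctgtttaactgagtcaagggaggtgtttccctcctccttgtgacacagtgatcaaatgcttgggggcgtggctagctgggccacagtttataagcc
Oasl2, chr5:114896734-114896933, plus strand: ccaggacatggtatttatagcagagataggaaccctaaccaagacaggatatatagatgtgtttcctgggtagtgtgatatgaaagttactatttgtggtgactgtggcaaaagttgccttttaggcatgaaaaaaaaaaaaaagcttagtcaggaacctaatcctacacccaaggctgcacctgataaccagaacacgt
Isg15 held 3 overlapping matches between 78 and 57 bases before its start, on the gene's strand. Ifit1 held 2 matches, beginning 104 and 85 bases before its start, and Ifit3 held 2, beginning 156 and 122 bases before it. Rsad2 held 1 match, beginning 120 bases before its start. The matches of Ifit1, Ifit3 and Rsad2 all lay on the opposite strand to the gene. No match to the ISRE letters was found in the windows of Irf7, Ifit2, Oasl2 and Ifi44. The GAS letters were found once among the 8 genes, 241 to 233 bases before the start of Ifit2, against 2726 of all promoters (8.298%). In the fixed list of other type I interferon-induced genes, 26 of 49 genes with an entry held the ISRE letters, as did 10 of 10 interferon-gamma-induced GTPases with an entry. A match is a run of letters and was not tested as a binding site.

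All 9 genes were expressed in every mouse, between a lowest value of 0.865 CPM (Isg15, 72 counts) and a highest of 58.8 CPM (Ifit2). Per unit of transcript length, the median TPM over the 45 mice was highest for Ifit3 (56.7 TPM) and Ifit2 (27.2 TPM). Rsad2 (7.45 TPM), Isg15 (7.02 TPM), Irf7 (5.49 TPM), Ifit1 (4.84 TPM), Oasl2 (4.24 TPM), Ifi44 (3.44 TPM) and Usp18 (3.01 TPM) followed. These medians join males and females, whose TPM tables were made separately. RNA of fewer cells of a type and less RNA per cell cannot be told apart in such bulk libraries.

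**Figure D1:**
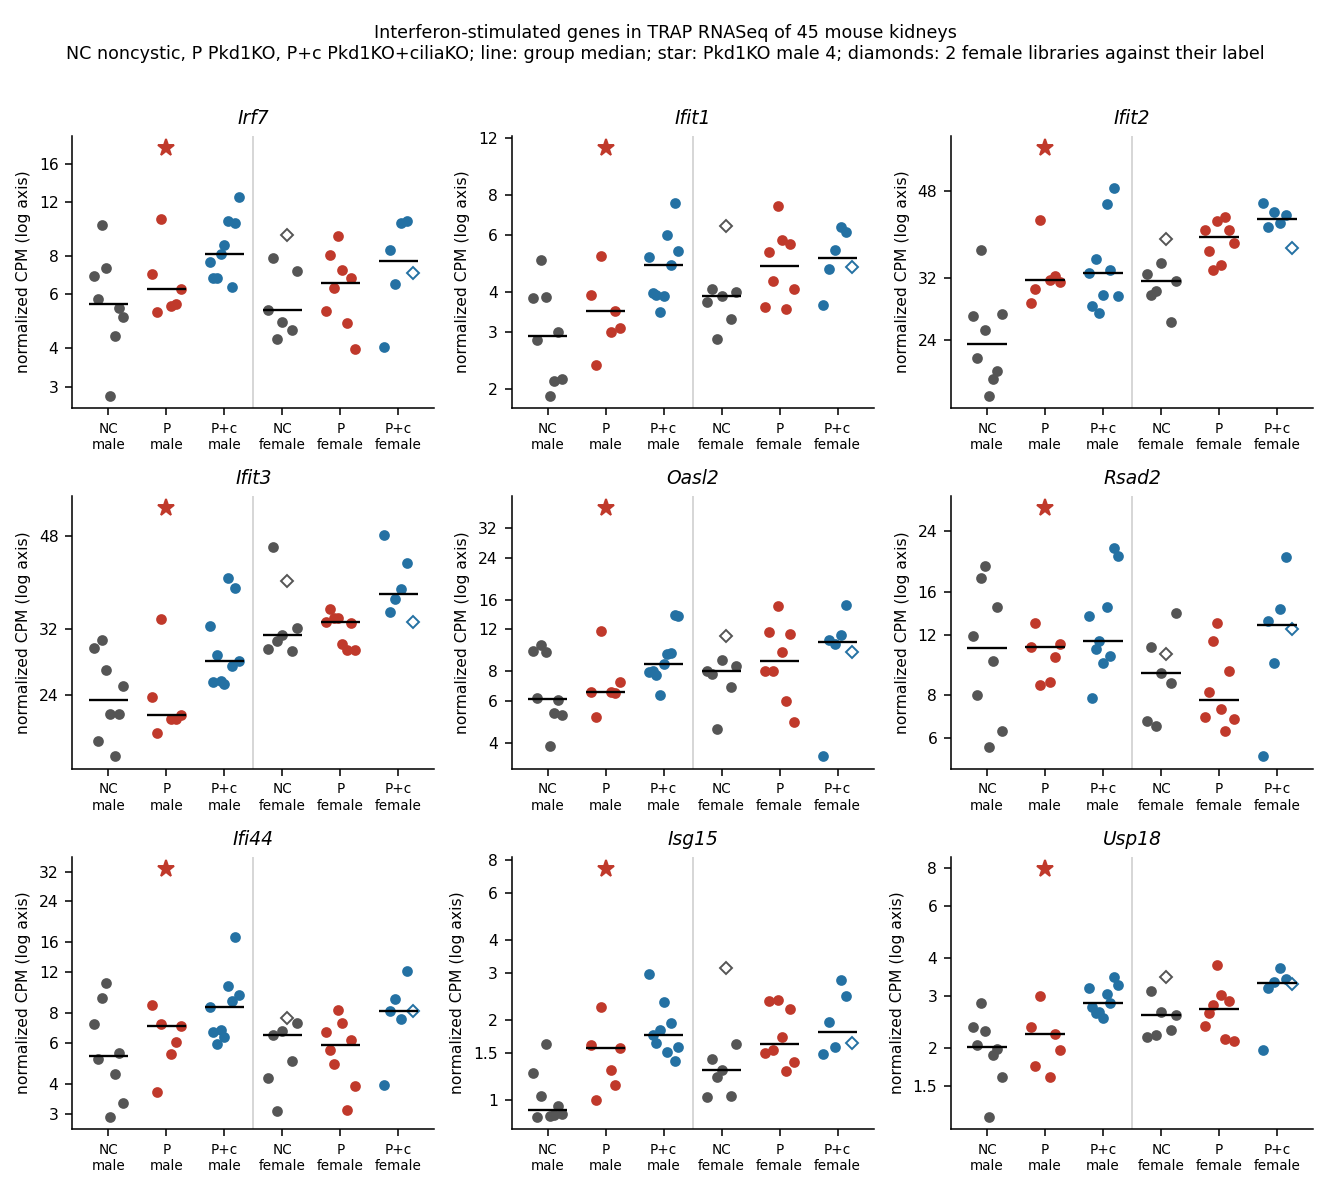
Normalized CPM (log axis) of each of the 9 genes in each of 45 mice, by genotype and sex (NC noncystic, P Pkd1KO, P+c Pkd1KO+ciliaKO). Points are mice and lines are group medians. The star, Pkd1KO male 4, is the highest point of all 45 in every panel, at 58.8 CPM for Ifit2 and 7.38 CPM for Isg15, and the diamonds are the 2 female libraries whose Kif3a went against their label.

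Irf7 (chr7:141262706-141266481, minus strand, GRCm38) is the transcription factor that amplifies interferon production. In males, Irf7 ran from 2.80 to 10.1 CPM (median 5.59) in noncystic mice, from 5.25 to 18.1 CPM (median 6.27) in Pkd1KO mice and from 6.35 to 12.5 CPM (median 8.12) in Pkd1KO+ciliaKO mice, the second highest Pkd1KO male having 10.6 CPM. In females, Irf7 ran from 4.29 to 9.37 CPM (median 5.34), from 3.98 to 9.34 CPM (median 6.55) and from 4.05 to 10.5 CPM (median 7.72) in the same order. The groups overlapped in both sexes, and every Pkd1KO+ciliaKO male lay above the noncystic male median. In Pkd1KO+ciliaKO against noncystic males Irf7 had a log2 fold change of 0.53 ± 0.20 (SE) and missed the threshold (edgeR quasi-likelihood test, Benjamini-Hochberg adjusted p = 0.101). The exons of Irf7 share 45 of their 3776 bases (1.19%) with Phrf1 on the plus strand, whose median was 73.9 CPM, and it is not given in the sources used here whether counting used strand.

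The Ifit genes, which lie beside each other on chromosome 19, encode proteins that bind foreign RNA and hold back its translation. Ifit1 (chr19:34640871-34650009, plus strand) binds RNA with an unmethylated cap. In males, Ifit1 ran from 1.90 to 5.01 CPM (median 2.92) in noncystic mice, from 2.38 to 11.2 CPM (median 3.48) in Pkd1KO mice and from 3.46 to 7.55 CPM (median 4.85) in Pkd1KO+ciliaKO mice, the second highest Pkd1KO male having 5.17 CPM. In females, Ifit1 ran from 2.87 to 6.38 CPM (median 3.89), from 3.54 to 7.39 CPM (median 4.82) and from 3.64 to 6.38 CPM (median 5.09) in the same order. In males, 4 of the 9 Pkd1KO+ciliaKO mice lay above all noncystic mice and the groups overlapped. The difference of 0.67 ± 0.19 on the log2 scale passed the test (adjusted p = 0.0386). In females the values overlapped more widely, with a log2 difference of 0.36 ± 0.17 between Pkd1KO+ciliaKO and noncystic mice (adjusted p = 0.252).

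Ifit2 (chr19:34550694-34576419, plus strand) is the family member linked to cell death as well as to antiviral defence. In males, Ifit2 ran from 18.5 to 36.5 CPM (median 23.6) in noncystic mice, from 28.6 to 58.8 CPM (median 31.8) in Pkd1KO mice and from 27.3 to 48.8 CPM (median 32.9) in Pkd1KO+ciliaKO mice, the second highest Pkd1KO male having 42.0 CPM. In females, Ifit2 ran from 26.1 to 38.4 CPM (median 31.7), from 33.2 to 42.6 CPM (median 38.9) and from 36.9 to 45.5 CPM (median 42.2) in the same order. All 8 Pkd1KO and all 6 Pkd1KO+ciliaKO females lay above the noncystic female median, and 5 of the 6 Pkd1KO+ciliaKO females lay above every noncystic female. Ifit2 rose in Pkd1KO+ciliaKO against noncystic mice of both sexes, by 0.48 ± 0.14 in males (adjusted p = 0.0346) and by 0.39 ± 0.08 in females (adjusted p = 0.0261). In Pkd1KO against noncystic mice the log2 differences were 0.57 ± 0.17 in males (adjusted p = 0.0542) and 0.27 ± 0.08 in females (adjusted p = 0.0746), neither past the threshold. Without the 2 female libraries that went against their labels, Pkd1KO+ciliaKO females ran from 40.7 to 45.5 CPM of Ifit2 and noncystic females from 26.1 to 34.3 CPM, and the groups no longer overlapped. The log2 differences of Ifit2 then were 0.48 (adjusted p = 0.00313) for Pkd1KO+ciliaKO and 0.32 (adjusted p = 0.0223) for Pkd1KO, both past the threshold.

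Ifit3 (chr19:34583531-34588731, plus strand) is a family member of the same antiviral defence. In males, Ifit3 ran from 18.3 to 30.5 CPM (median 23.5) in noncystic mice, from 20.3 to 54.0 CPM (median 22.0) in Pkd1KO mice and from 25.2 to 40.0 CPM (median 27.8) in Pkd1KO+ciliaKO mice, the second highest Pkd1KO male having 33.4 CPM. In females, Ifit3 ran from 29.0 to 45.6 CPM (median 31.1), from 29.1 to 34.9 CPM (median 32.9) and from 33.0 to 48.1 CPM (median 37.2) in the same order. Among females, the Pkd1KO mice had the narrowest range and the Pkd1KO+ciliaKO mice the highest median, with overlap. Ifit3 was lower in Pkd1KO than in Pkd1KO+ciliaKO females, by a log2 fold change of -0.28 ± 0.08 (adjusted p = 0.0349). No difference of Ifit3 from noncystic mice passed the test in either sex. Of the 150-base words of its transcripts, 296 of 1596 (18.55%) are shared with its near copy Ifit3b, as are 31 of 2507 words of Ifit1 (1.24%) with Ifit1bl2. A single read of such a word matches both genes, and how many read pairs could not be placed on 1 gene was not measured.

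Oasl2 (chr5:114896936-114912234, plus strand) belongs to the oligoadenylate synthetase family, whose members respond to double-stranded RNA. In males, Oasl2 ran from 3.88 to 10.3 CPM (median 6.14) in noncystic mice, from 5.14 to 38.6 CPM (median 6.54) in Pkd1KO mice and from 6.35 to 13.8 CPM (median 8.61) in Pkd1KO+ciliaKO mice, the second highest Pkd1KO male having 11.8 CPM. In females, Oasl2 ran from 4.58 to 11.3 CPM (median 8.00), from 4.91 to 15.0 CPM (median 8.82) and from 3.52 to 15.2 CPM (median 10.7) in the same order. Pkd1KO male 4 had the highest value of the 45 mice, and the groups overlapped. No comparison of Oasl2 passed the test, the log2 difference being 0.42 ± 0.20 (adjusted p = 0.196) in Pkd1KO+ciliaKO against noncystic males.

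Rsad2 (chr12:26442746-26456452, minus strand) encodes viperin, a radical SAM enzyme that blocks viral RNA synthesis. In males, Rsad2 ran from 5.65 to 19.0 CPM (median 11.0) in noncystic mice, from 8.60 to 27.9 CPM (median 11.0) in Pkd1KO mice and from 7.85 to 21.4 CPM (median 11.5) in Pkd1KO+ciliaKO mice, the second highest Pkd1KO male having 13.0 CPM. In females, Rsad2 ran from 6.54 to 13.9 CPM (median 9.29), from 6.29 to 13.0 CPM (median 7.74) and from 5.32 to 20.1 CPM (median 12.8) in the same order. The male medians differed by less than the spread within any group, and no comparison of Rsad2 passed the test. Its largest difference was in Pkd1KO against Pkd1KO+ciliaKO females, at -0.54 ± 0.24 on the log2 scale (adjusted p = 0.15).

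Ifi44 (chr3:151730922-151749960, minus strand) encodes an interferon-induced cytoplasmic protein. In males, Ifi44 ran from 2.90 to 10.8 CPM (median 5.26) in noncystic mice, from 3.72 to 32.8 CPM (median 7.06) in Pkd1KO mice and from 5.90 to 16.9 CPM (median 8.51) in Pkd1KO+ciliaKO mice, the second highest Pkd1KO male having 8.70 CPM. In females, Ifi44 ran from 3.08 to 7.66 CPM (median 6.49), from 3.09 to 8.28 CPM (median 5.85) and from 3.96 to 12.1 CPM (median 8.18) in the same order. In females, 4 of the 6 Pkd1KO+ciliaKO mice lay above all noncystic mice, and 1 of the 9 did so in males. Its log2 differences between Pkd1KO+ciliaKO and noncystic mice were alike in size, 0.55 ± 0.26 in males (adjusted p = 0.19) and 0.50 ± 0.24 in females (adjusted p = 0.233), and neither passed.

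Isg15 (chr4:156199455-156200796, minus strand) encodes a ubiquitin-like protein that is attached to other proteins, a process named ISGylation. In males, Isg15 ran from 0.865 to 1.62 CPM (median 0.916) in noncystic mice, from 0.997 to 7.38 CPM (median 1.57) in Pkd1KO mice and from 1.40 to 2.97 CPM (median 1.76) in Pkd1KO+ciliaKO mice, the second highest Pkd1KO male having 2.24 CPM. In females, Isg15 ran from 1.03 to 3.14 CPM (median 1.30), from 1.29 to 2.37 CPM (median 1.63) and from 1.48 to 2.82 CPM (median 1.80) in the same order. In males, 6 of the 9 Pkd1KO+ciliaKO mice lay above every noncystic mouse, and the remaining ones were within the noncystic range. The rise of 0.85 ± 0.17 on the log2 scale had the smallest adjusted p among the 9 genes in any within-sex comparison of genotypes (adjusted p = 0.00451). In Pkd1KO against noncystic males the log2 difference was larger, at 1.15 ± 0.38, but missed the threshold (adjusted p = 0.0842), and without Pkd1KO male 4 it was 0.49 (adjusted p = 0.204). In females the difference between Pkd1KO+ciliaKO and noncystic mice was 0.37 ± 0.26 (adjusted p = 0.426), with noncystic female 5, one of the libraries against its label, highest of all females at 3.14 CPM.

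Usp18 (chr6:121245906-121270917, plus strand) removes Isg15 from proteins and also damps signalling from the type I receptor. In males, Usp18 ran from 1.18 to 2.84 CPM (median 2.02) in noncystic mice, from 1.60 to 7.95 CPM (median 2.23) in Pkd1KO mice and from 2.53 to 3.45 CPM (median 2.83) in Pkd1KO+ciliaKO mice, the second highest Pkd1KO male having 3.00 CPM. In females, Usp18 ran from 2.18 to 3.45 CPM (median 2.58), from 2.11 to 3.79 CPM (median 2.71) and from 1.98 to 3.71 CPM (median 3.31) in the same order. The Pkd1KO+ciliaKO males were close to each other, and 4 of the 9 lay above every noncystic male. Usp18 rose by 0.53 ± 0.14 in that comparison (adjusted p = 0.0196). In females the difference was 0.26 ± 0.15 (adjusted p = 0.36). Its exons share 124 of 2790 bases (4.44%) with the lincRNA Gm44148, which had a median of 0.106 CPM.

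To ask what changed when Pkd1 and cilia were both lost, Pkd1KO+ciliaKO mice were compared with noncystic mice. In males, 4 of the 9 genes rose (Isg15, Usp18, Ifit2 and Ifit1), against 8.89% of all genes tested that were called in that comparison in either direction and 5.63% called higher. All 9 fold changes were positive, with a median log2 fold change of 0.53 against 0.01 over all genes tested. Most of the 9 genes moved together from mouse to mouse, so that they were not independent of each other. With the 3 genotypes of males in 1 fit none of the 9 was called, and with the replicate block only Ifit2 and Isg15 and with limma on TPM only Isg15 and Usp18. The shares of all genes called in these alternative fits are not given here. In the fit of this pair, Isg15 and Usp18 were called whichever mouse was left out, whereas the calls of both Ifit1 and Ifit2 were lost without noncystic male 2, 5, 6 or 7 or Pkd1KO+ciliaKO male 6 or 8. Ifit1 alone was lost without noncystic male 8 or Pkd1KO+ciliaKO male 1, 7 or 9. Ifit2 alone was lost without noncystic male 4 or Pkd1KO+ciliaKO male 3. Without noncystic male 3, 6 of the 9 were called, a count given without the share of all genes called in that fit. With all mice, the 5 genes that did not pass were Irf7, Ifi44, Oasl2, Ifit3 and Rsad2, at log2 fold changes of 0.53, 0.55, 0.42, 0.31 and 0.20. In females 1 of the 9 was called, Ifit2, against 2.54% in either direction and 0.670% called higher. All 9 fold changes were positive there also, with a median of 0.36. The call of Ifit2 was lost without noncystic female 2, 3 or 7 or Pkd1KO+ciliaKO female 2, 3 or 4, each in turn.

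With loss of Pkd1 alone, none of the 9 genes was called against noncystic mice in males, where 6.30% of all genes were called, or in females, where 3.34% were called. At an unadjusted p of 0.05, 2 of the 9 in males (Ifit2 and Isg15) and 1 in females (Ifit2) were past the threshold, against 22.1% and 16.4% of all genes. The median of the 9 log2 fold changes was 0.57 in males, where all were positive, and 0.06 in females, where 6 were. The male median rested on 1 library. Without Pkd1KO male 4 it was 0.09, 7 of the 9 were positive, and Ifit3 (-0.03) and Rsad2 (-0.14) were below 0. Without the 4 male libraries of highest score, Ifit2 was called in this comparison at 0.52 (adjusted p = 0.00938). Ifit2 also passed when noncystic male 3 or Pkd1KO male 1 or 2 was left out, and in females without noncystic female 5 or Pkd1KO female 3 or 5.

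Between Pkd1KO and Pkd1KO+ciliaKO mice, the comparison that sets cilia-dependent against cilia-independent changes in Pkd1 mutants, none of the 9 genes was called in males (3.77% of all genes), with a median log2 fold change of 0.03 and none at an unadjusted p of 0.05. In females 1 was called, Ifit3, lower in Pkd1KO, against 11.7% of all genes in either direction and 4.65% called lower. Ifit3 was not called there without Pkd1KO female 5, 6 or 8 or Pkd1KO+ciliaKO female 4 or 5, and without Pkd1KO+ciliaKO female 1 the calls were Rsad2 and Ifi44, both lower in Pkd1KO. None of the 9 female fold changes was positive, and their median was -0.22. Without Pkd1KO male 4 the male median was -0.37 and none of the 9 was positive, still with no call. The 3 comparisons of a sex share mice, so that their fold changes are not independent of each other.

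**Figure D2:**
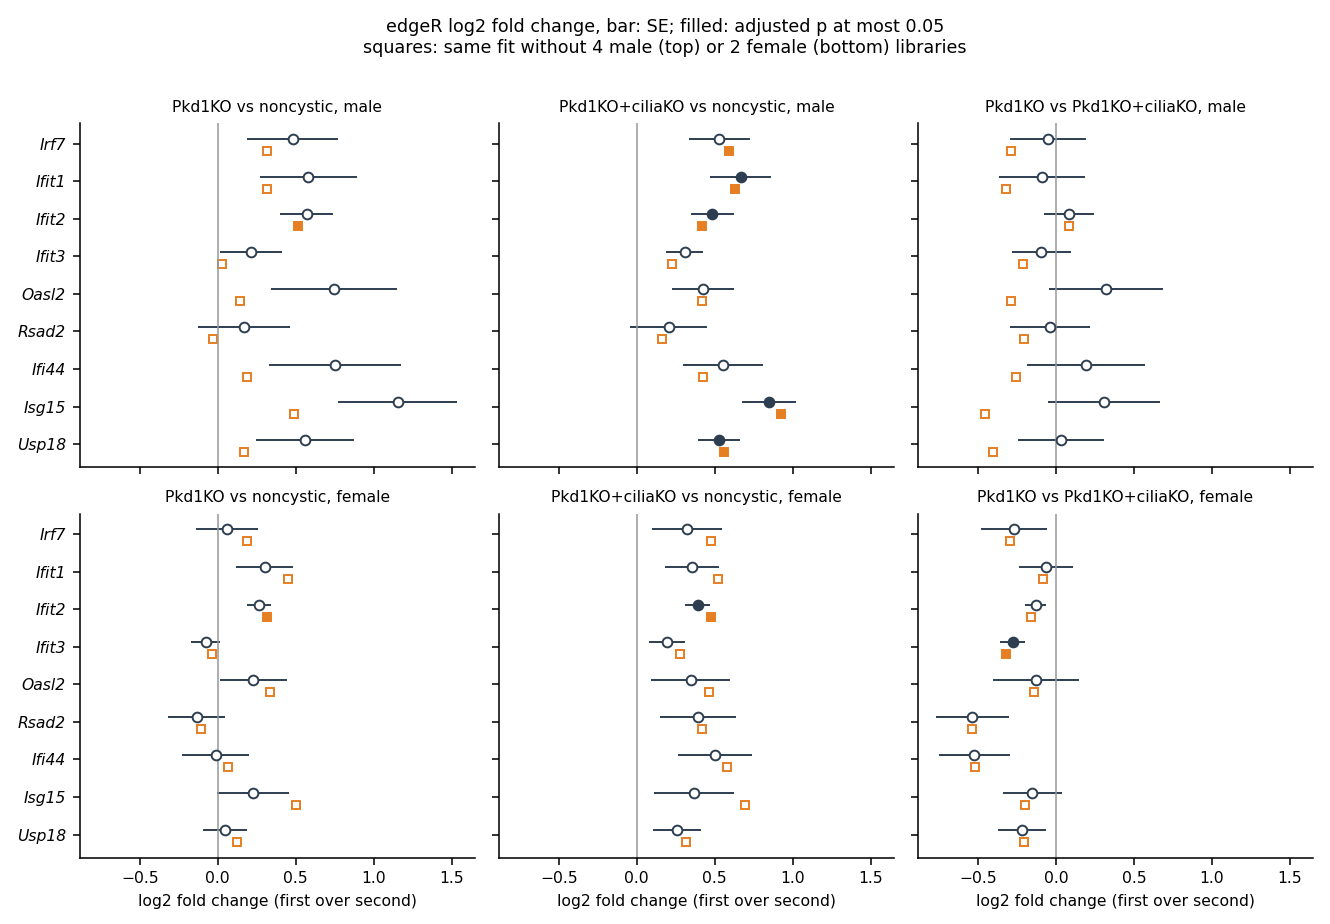
Log2 fold change (x axis) of the 9 genes in the 6 within-sex comparisons, with bars for the SE and filled circles for an adjusted p of at most 0.05. Squares give the same fit without the 4 male or the 2 female libraries. The filled circles are Isg15, Usp18, Ifit2 and Ifit1 in Pkd1KO+ciliaKO against noncystic males, Ifit2 in the same comparison of females, and Ifit3, to the left of 0, in Pkd1KO against Pkd1KO+ciliaKO females.

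The effect of genotype was then set against sex in 1 fit of all 45 mice. None of the 9 genes had a difference between males and females in any of the 3 genotype effects past the threshold, against 0.0126%, 0.221% and 0.0316% of all genes called. The smallest adjusted p for Pkd1KO against noncystic mice was that of Isg15, whose Pkd1KO effect was larger in males by 0.92 ± 0.41 on the log2 scale (edgeR adjusted p = 0.541). Between noncystic males and females, Ifit2 (-0.37 ± 0.13, adjusted p = 0.031) and Ifit3 (-0.48 ± 0.15, adjusted p = 0.0134) were lower in males, against 27.4% of all genes in either direction and 13.3% called lower. With the sexes averaged, an analysis added after the data were seen, Pkd1KO mice had more Ifit2 (0.42 ± 0.09, adjusted p = 0.00123) and Isg15 (0.69 ± 0.21, adjusted p = 0.0174) than noncystic mice, 2 of 9 against 15.9% of all genes and 9.52% called higher. Pkd1KO+ciliaKO mice had more Ifit2 (0.44, adjusted p = 0.00118), Ifit1 (0.51, adjusted p = 0.0308) and Isg15 (0.61, adjusted p = 0.0341), 3 of 9 against 19.3% and 8.97% called higher. None of the 9 differed between Pkd1KO and Pkd1KO+ciliaKO mice in that fit, where 22.4% of all genes were called. Without Pkd1KO male 4 the counts of the 9 called were 1 higher, 7 higher and 3 lower (Ifit3, Ifi44 and Usp18 in Pkd1KO against Pkd1KO+ciliaKO mice). The share of all genes called without that mouse is not given here, so that these counts have no background beside them. The labels also give each mouse a number, whose meaning they do not state. Over all mice, Ifit2 (-0.33 per 1000, adjusted p = 0.0109) and Ifit3 (-0.34 per 1000, adjusted p = 0.0253) fell on the log2 scale with that number, against 17.1% of all genes in either direction and 8.77% called lower. The lowest numbers were 1848 (Pkd1KO+ciliaKO male 6), 1872 (noncystic male 3) and 1898 (Pkd1KO+ciliaKO male 8), and the next was 2388. Those mice are among the 4 male libraries of highest score, and the slope was not fitted without them.

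Within groups most of the 9 genes varied more between mice than the median gene. The SD of log2(CPM + 0.1) around the group mean had a median of 0.478 over the 9 genes and of 0.219 over all genes, and it ran from 0.256 for Ifit2 and 0.287 for Ifit3 to 0.602 for Oasl2 and 0.616 for Ifi44. The least variable of the 9 were thus also those with the highest TPM. Without the 6 libraries named above the medians were 0.331 and 0.191, with Ifit2 at 0.157, lower than that of all genes, and Ifit3 at 0.199, close to it. Among these libraries, Pkd1KO male 4 was highest of its group for 9 of the 9 genes and noncystic female 5 for 7. Noncystic male 3 and Pkd1KO+ciliaKO male 8 were so for 6 each, Pkd1KO+ciliaKO male 6 for 1 and Pkd1KO+ciliaKO female 6 for 0. Leaving them out thus lowers the SD of the 9 genes in part by construction. These SDs hold counting error as well, which is larger for low genes.

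Most of the 9 genes moved together from mouse to mouse within groups, with low values for some pairs of Ifit2 and Ifit3 in females. In 45 group-centred mice, Pearson's r of the 36 pairs of genes was positive in all, from 0.40 for Ifit2 with Rsad2 to 0.91 for Ifit1 with Usp18, with a median of 0.73. Spearman's rho had a median of 0.66 and ran from 0.21 to 0.90. By permutation of mice, p adjusted over the 36 pairs was at most 0.0213 for r in all 36 pairs, and 34 of 36 passed for rho, the smallest p that the permutations could give being 1e-05. Each pair was taken again without the 2 mice farthest from the median of its first gene, in the order of the list of 9. All 36 were still positive, with a median r of 0.62. Far values of the second gene were not looked for. The median r was 0.79 in males and 0.66 in females, where Ifit2 was near 0 with Irf7 (0.09), Oasl2 (0.11), Ifi44 (0.07), Usp18 (0.05) and Rsad2 (-0.10), and Ifit3 with Oasl2 (0.05). Over all mice the median was 0.61 without Pkd1KO male 4, where the lowest was 0.17. Against the mean of the other 8 genes, r was highest for Ifit1 (0.944), Usp18 (0.937), Oasl2 (0.926), Ifi44 (0.909) and Irf7 (0.899) and lower for Rsad2 (0.753), Isg15 (0.737), Ifit3 (0.721) and Ifit2 (0.642). Ifit2 and Ifit3 had an r of 0.79 with each other, at 0.89 in males, 0.30 in females and 0.52 without the 6 libraries. These genes share libraries and their depth, and the mean of the 9 had an r of 0.026 with total count.

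**Figure D3:**
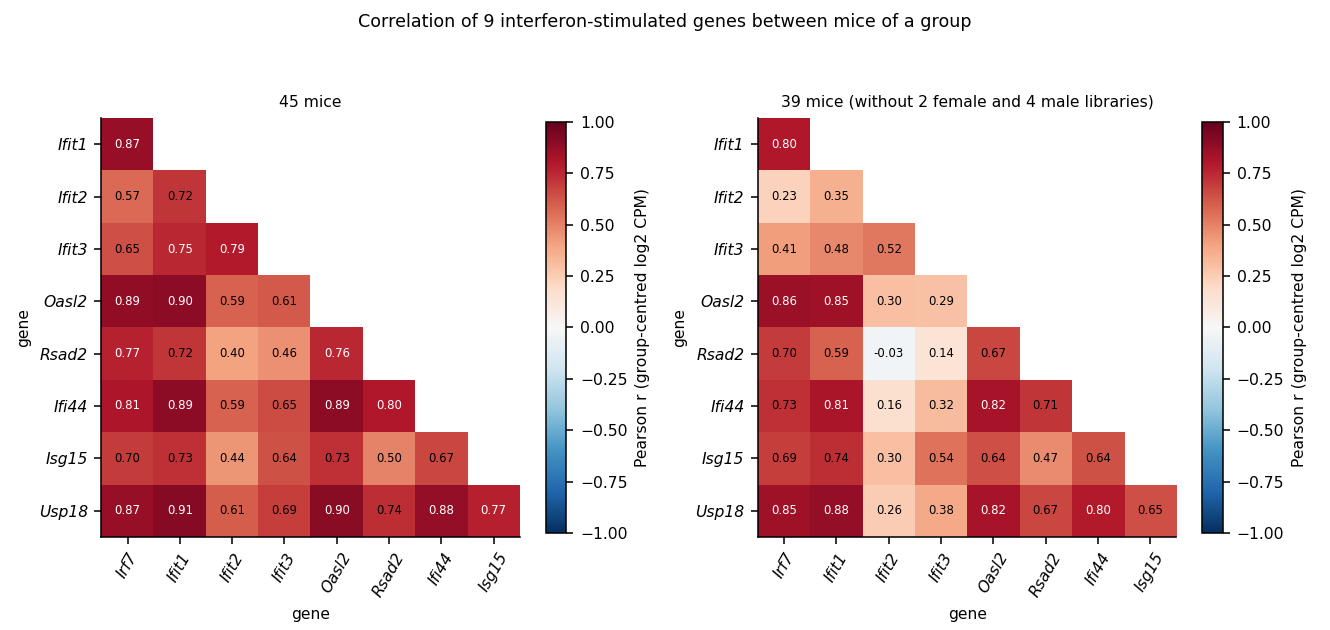
Pearson's r between pairs of the 9 genes, over group-centred log2(CPM + 0.1), as a colour from low to high, with all 45 mice and without 6 libraries. The 36 pairs range from 0.40 to 0.91 with all mice and from -0.03 to 0.88 without the 6 libraries.

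Among the genes whose pattern over the 45 mice was most like the mean of the 9 were Trim30a (r = 0.968), Sp110 (0.948), Rtp4 (0.938), Was (0.932), Fyb (0.932), Tifab (0.931), Oas1a (0.929), Cyth4 (0.928) and Pik3ap1 (0.928), given as a description. Trim30a, Rtp4 and Oas1a are themselves interferon-induced, while Was, Fyb and Pik3ap1 are known from blood cells. Without Pkd1KO male 4 the r of Trim30a was 0.947, that of Sp110 0.914 and that of Rtp4 0.891.

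Markers of most cell types outside the tubule moved with the 9 genes, those of B cells and mast cells less closely. Over group-centred mice, the mean of the 9 had an r of 0.766 with the macrophage list, 0.793 with endothelial cells, 0.706 with fibroblasts and pericytes and 0.856 with podocytes, and of -0.349 with the proximal tubule, the last at -0.54 in males and 0.262 in females. The lists of plasmacytoid dendritic cells (0.794), neutrophils (0.777) and T and NK cells (0.742), all of low level, had an r of like size. Lower values were those of B cells (0.55, and 0.37 without Pkd1KO male 4) and of mast cells (0.362 and 0.31). With the mean of the first 4 lists r was 0.885 and rho 0.819, and r was 0.824 without the 2 farthest mice. Pkd1KO male 4 was the highest of all 45 mice in the macrophage (480 CPM), endothelial (441 CPM) and podocyte (175 CPM) sums, as it was in each of the 9 genes. The group medians of the macrophage sum ran from 80.5 to 128 CPM, the highest in Pkd1KO males. Of its 11 markers Csf1r had the highest median, 65.9 CPM over all mice. The group medians of Csf1r ran from 45.6 CPM in Pkd1KO+ciliaKO females to 97.5 CPM in Pkd1KO males. Its r with the mean of the 9 was 0.176, whereas r was over 0.5 for 10 of the 11 markers. Defining markers were low but present, F4/80 (Adgre1) at a median of 1.84 CPM and up to 19.7, and Lyz2 at 4.26 and up to 116, and Siglech of plasmacytoid dendritic cells at 0.159 and up to 0.796 CPM. No gene of these lists was at 0 in all mice.

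A fit with that 4-list mean as a covariate was added after the data were seen. The slope of all 9 genes on it was positive and past the threshold, from 0.35 for Ifit2 to 1.30 for Oasl2 on the log2 scale, against 40.4% of all genes called and 20.8% called higher. With the covariate, 5 of the 9 genes were called in Pkd1KO+ciliaKO against noncystic males (Irf7, Ifit1, Ifit2, Isg15 and Usp18), against 10.5% of all genes, with a median log2 fold change of 0.43. Ifit2 in Pkd1KO+ciliaKO against noncystic females and Ifit3 in Pkd1KO against Pkd1KO+ciliaKO females were called as before, against 3.53% and 12.1% of all genes. The median of the 9 genes in Pkd1KO against noncystic males was 0.045 with the covariate, against 0.57 without it. Whether cells outside the tubule were the source of any of these counts was not tested.

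**Figure D4:**
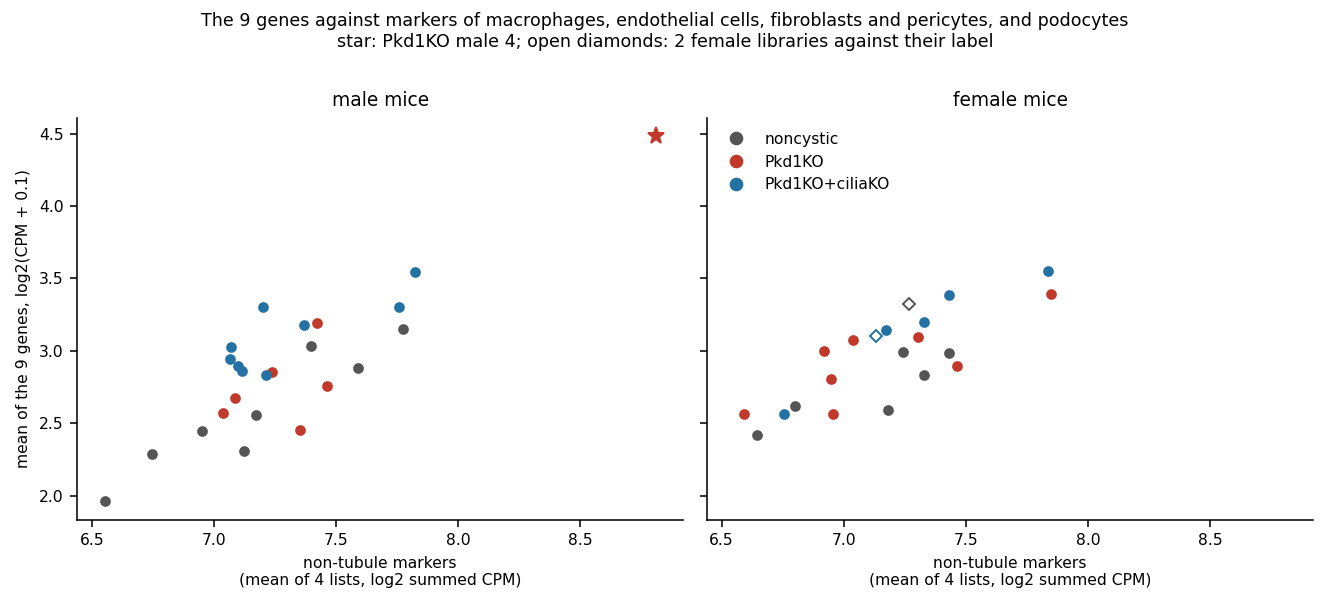
Mean of the 9 genes, log2(CPM + 0.1), on the y axis against the mean log2 summed CPM of 4 lists of markers of cells outside the tubule on the x axis, 1 point a mouse, males and females apart. Points rise from left to right, with r = 0.921 in males and 0.816 in females after group centring, and the star, Pkd1KO male 4, lies at 8.81 on the x axis, beyond all other mice.

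The rest of the pathway was described from fixed lists, beginning with the ligands. Of 21 interferon genes only 1 passed the filter. Ifnb1 had at most 1 count in a library and 0 in 40 of the 45, and Ifng had at most 8 counts and 0 in 30. Of 9 receptor and kinase genes, Ifnlr1, the interferon lambda receptor chain, rose in Pkd1KO+ciliaKO against noncystic males (0.36, adjusted p = 0.0308) and Jak2 fell by 0.22 (adjusted p = 0.0159). The other 7 passed in no comparison, and Jak1 (108 TPM) and Jak2 (75.4 TPM) had the highest mean TPM. Among the transcription factor genes, Irf8 rose in Pkd1KO against noncystic males (0.68, adjusted p = 0.0219), and Irf3 (0.23) and Irf5 (1.23) were higher in Pkd1KO than in Pkd1KO+ciliaKO females.

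Of 14 tested genes of nucleic acid sensing, Tmem173, which encodes Sting, rose in both male comparisons with noncystic mice, by 1.10 in Pkd1KO (adjusted p = 0.0269) and 0.64 in Pkd1KO+ciliaKO (adjusted p = 0.00892). Tlr3, a sensor of double-stranded RNA, rose in the latter (0.40, adjusted p = 0.0375) and was lower in Pkd1KO than in Pkd1KO+ciliaKO females (-0.51, adjusted p = 0.0127). Ddx58, which encodes Rig-I, rose in Pkd1KO against noncystic females (0.25, adjusted p = 0.0495). Of 6 genes of ISGylation and feedback, Socs3, an inhibitor of cytokine signalling, rose in males by 1.54 in Pkd1KO (adjusted p = 0.0128) and 1.36 in Pkd1KO+ciliaKO (adjusted p = 0.00415). Of 7 genes of nucleic acid clearance, Rnaseh2b fell by 0.34 in Pkd1KO+ciliaKO against noncystic males (adjusted p = 0.043) and the others passed in no comparison.

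Of 57 other type I interferon-induced genes tested, 13 rose and none fell in Pkd1KO+ciliaKO against noncystic males, where 5.63% of all genes were called higher. Without the 4 male libraries 14 rose. Calls of this list without libraries are given without the shares of all genes called in those fits. With all mice, the 4 of smallest p were Tor3a (0.37, adjusted p = 0.00282), Ifi27 (0.44, adjusted p = 0.00402), Bst2 (0.60, adjusted p = 0.0122) and Oas1g (0.94, adjusted p = 0.017). In Pkd1KO against noncystic males 2 rose, Shisa5 (0.40, adjusted p = 0.006) and Bst2 (1.17, adjusted p = 0.0458), and Pnpt1 fell by 0.21 (adjusted p = 0.035), 3 of 57 against 6.30% of all genes. The call of Shisa5 alone was left without Pkd1KO male 4, and the list's median log2 fold change went from 0.48 to 0.11. Against noncystic females, Ifi44l rose in Pkd1KO (1.67, adjusted p = 0.032) and none of the 57 in Pkd1KO+ciliaKO. Without the 2 female libraries Ifi44l was not called and Ifit3b was called higher in Pkd1KO+ciliaKO females. Between Pkd1KO and Pkd1KO+ciliaKO mice, Ifi44l (3.87) and Oas1c (0.64) were higher and Ifit1bl2 (-0.60) lower in Pkd1KO males, and without the 4 male libraries Oas1c alone was called. In Pkd1KO females Ifi44l (2.24), Isg20 (0.86) and Shisa5 (0.46) were higher and Ifit1bl1 (-0.60), Ifit3b (-0.46) and Parp12 (-0.39) lower, 6 of 57 against 11.7% of all genes. The highest mean TPM of the list were those of Samd9l (181 TPM) and Ifi27 (104 TPM). The median log2 fold change of the 57 was 0.27 in Pkd1KO+ciliaKO males and 0.17 in Pkd1KO+ciliaKO females.

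Interferon-gamma-induced GTPases attack the vacuoles of pathogens, and 16 of them were tested. In males, 7 rose in Pkd1KO against noncystic mice and none in Pkd1KO+ciliaKO against noncystic mice, with median log2 fold changes of 1.00 and 0.40, where 6.30% and 8.89% of all genes were called. In Pkd1KO against noncystic males the marker lists of macrophages and of T and NK cells also had positive medians, 1.63 and 1.86. Lyz2 (2.98, adjusted p = 0.0283) and Nkg7 (2.47, adjusted p = 0.0398) were called. Pkd1KO male 4 had the highest sums of both lists, at 480 and 12.3 CPM. The median macrophage sum was 128 CPM in Pkd1KO and 104 CPM in noncystic males. For T and NK cells these medians were 2.20 and 1.59 CPM. The part of such cells in the GTPase counts was not tested. Gbp2 (1.40, adjusted p = 0.00983), Gbp6 (1.16, adjusted p = 0.0129), Gbp2b (5.93, adjusted p = 0.0157, at 0 to 15.8 CPM over all mice) and Tgtp1 (1.34, adjusted p = 0.0166) had the smallest p. Without Pkd1KO male 4, 5 of the 7 were called, those 4 and Igtp, and the median was 0.63. Without the 4 male libraries 5 rose in Pkd1KO males, the same genes, and 3 in Pkd1KO+ciliaKO males (Gbp6, Iigp1 and Tgtp2). The counts of this list without libraries are given without the shares of all genes called in those fits. Against Pkd1KO+ciliaKO mice, 3 of the 16 were higher in Pkd1KO males (Gbp2, Gbp2b and Gbp8), against 3.77% of all genes called in either direction. In females 2 of the 16 were higher (Gbp2 and Gbp8), against 11.7% of all genes. Without Pkd1KO male 4, or without the 4 male libraries, Gbp8 alone was called in males, and without the 2 female libraries Gbp2 alone in females. In females none was called against noncystic mice, and Gbp2 was called higher in Pkd1KO without the 2 female libraries.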

How the data were processed

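Raw counts per gene and TPM tables were deposited for each sex. Per the labels, the authors trimmed reads with fastp 0.20.0, aligned them to GRCm38.p6 with STAR 2.7.9 and made the deposited counts with featureCounts 2.0.0, from ribosome-depleted libraries read as 150-base pairs. The authors' TPM values, counts scaled by transcript length and depth, hold protein-coding genes that reached 6 counts in 20% of the mice of a sex, and the same genes were tested here. Whether counting used strand is not given in the sources used here.

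Counts were scaled by TMM and each pair of groups was fitted apart within a sex with edgeR 4.0.16 (quasi-likelihood test, R 4.3.3), calling genes at a Benjamini-Hochberg adjusted p of 0.05 or less over all genes tested. All 45 mice were fitted together for sex, sex by genotype and mouse number. Levels are TMM-normalized CPM, and log2(CPM + 0.1) was used for spread and correlation. Correlations across mice were tested by permutation (100000 resamples). Scripts were tested on simulated data. The 9 genes and all lists were chosen with earlier results of these data known, and all 9 genes are named whatever their values. From each list the genes called in a pairwise comparison are named, at most 4 per comparison by smallest p, with the highest by mean TPM. Some genes of these lists are not reported here. Alternatives were DESeq2 1.42.0, voom and limma 3.58.1, other filters and normalizations, a replicate block and leaving out libraries.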

Additional observations from a re-analysis of the deposited data

Results flagged for a closer look

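In each group of 6 to 9 mice, the gap between the highest or lowest mouse and its neighbour was set against the group's range (Dixon's 95% value), for 9 genes in 6 groups. Of the 54 tests 12 passed, and chance passes about 1 in 20. The 9 genes moved together between mice, so that the 54 tests were not independent of each other. Pkd1KO male 4 lay far above the rest of its group for 8 of the 9 genes, at 18.1 CPM of Irf7, 11.2 of Ifit1, 54.0 of Ifit3, 38.6 of Oasl2, 27.9 of Rsad2, 32.8 of Ifi44, 7.38 of Isg15 and 7.95 of Usp18, all but Ifit2. The library labelled noncystic female 5, whose Kif3a went against its label, lay above its group for Ifit1 (6.38 CPM, the next mouse at 4.08) and Isg15 (3.14 CPM, the next at 1.63). Pkd1KO+ciliaKO male 8 lay above its group for Ifi44 (16.9 CPM, the next at 10.5), and Pkd1KO+ciliaKO female 1 lay below its group for Usp18 (1.98 CPM, the next at 3.18).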

How the results depend on the processing

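No fold change of the 9 genes that was called turned its direction under any alternative run. The number of the 9 genes called changed as follows. In Pkd1KO against noncystic males, with 0 called, DESeq2 and a fit of the 3 genotypes of a sex called 2 each, and a minimum of 10 counts, voom, the replicate block and leaving out the 4 male libraries called 1 each; leaving out each mouse gave 0 to 1. In Pkd1KO+ciliaKO against noncystic males, with 4 called, the fit of 3 genotypes called 0, the replicate block 2, and limma on log2(TPM + 1) or log2(TPM + 0.1) 2 each, and leaving out each mouse gave 2 to 6. In Pkd1KO against noncystic females, with 0 called, DESeq2, voom and leaving out the 2 female libraries called 1 each, and leaving out each mouse gave 0 to 1. In Pkd1KO against Pkd1KO+ciliaKO females, with 1 called, the fit of 3 genotypes, all annotated genes and the replicate block called 0 and voom 2, and leaving out each mouse gave 0 to 2; in Pkd1KO+ciliaKO against noncystic females, also with 1, it gave 0 to 1. In Pkd1KO against Pkd1KO+ciliaKO males every alternative called 0. Between noncystic males and females, with 2 called, leaving out the 2 female libraries called 1, leaving out the 4 male libraries 5 and voom 4. With the sexes averaged, alternatives added after the data were seen called, without the 4 male libraries and without Pkd1KO male 4, 1 each for Pkd1KO against noncystic mice (2 in the fit of all mice), 2 and 3 for Pkd1KO against Pkd1KO+ciliaKO mice (0) and 7 each for Pkd1KO+ciliaKO against noncystic mice (3), and the marker covariate called 1, 2 and 6. The median SD fell to 0.331 without 6 libraries. The shares of all genes called under these alternatives are not set beside the counts here, and the causes were not tested. Same-numbered mice did not deviate together (correlations from -0.280 to 0.278, at most 3 pairs of a comparison over 0.1), so that the replicate block rests on a shared number only. Depth limits Isg15 most, at 72 to 770 counts a library.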
